A study of Mus musculus with 338 samples.

Results

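Gc encodes the vitamin D binding protein, also called group-specific component. It is 1 row of the 21382 genes in the raw count table of a mouse pancreatic islet series, taken by its symbol and set beside Gcg, the glucagon gene, as the reference for alpha cells. Gc was chosen by its measured levels in these libraries, so its levels by strain, diet and day are given as a description, with errors but with no test. Islets came from inbred mice of 6 strains (AKR/J, DBA/2J, 129S2/SvPas, C57Bl/6J, BALB/cJ and A/J). The mice were fed regular chow (RC) or a diet high in fat and sugar (HFHS), and were sampled at the time points labelled day 2, 10, 30 and 90. The labels name no genotype or agent beyond strain and diet, and give neither the age nor the sex of the mice. Each library is 1 mouse (166 were on RC and 172 on HFHS), and strain, diet and day make 48 groups, the smallest of 4 mice and the largest of 11. Libraries were made from 200 ng of total RNA of at least 150 islets.

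Vitamin D binding protein is a secreted serum protein of the albumin family, made mostly by the liver, that carries vitamin D and its hydroxylated forms and binds actin monomers released by damaged cells. Within islets, Gc transcripts are known chiefly from glucagon-producing alpha cells, and the gene has also been described as rising in beta cells that lose their mature identity. Carried 25-hydroxyvitamin D is taken up in some tissues by the megalin and cubilin receptors (Lrp2 and Cubn), activated by Cyp27b1, removed by Cyp24a1, and acts through the vitamin D receptor Vdr paired with retinoid X receptors (Rxra, Rxrb and Rxrg).

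The libraries held between 9526926 and 50751894 reads assigned to genes (median 25989180), and Gc took 1026 to 18370 of them, so counting error is small beside the differences between mice. Libraries differed in how their counts depended on the guanine and cytosine (GC) content of genes. In 39 libraries the slope exceeded 0.5 log2 per 10 GC points in size, and 37 of these were low for GC-rich genes. These libraries beyond the GC bound include all 6 of BALB/cJ on HFHS at day 2, 7 of 8 of DBA/2J on RC at day 90, and all 9 libraries whose strain-specific genes matched another strain than the labelled one. The median share of reads on the insulin genes was 22.5% within the bound and 2.80% beyond it. Transcripts of Gc are 45.9% GC and those of Gcg 44.8%, both below the mean of the genes compared (49.7%). Values are therefore given with and without these libraries where they touch a result. AKR/J has no library beyond the bound.

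Gc was read in every library. Its level, in counts scaled to the library's assigned reads (CPM), ran from 46.5 to 551 CPM with a median of 97.4 CPM. Per kilobase of the longest annotated transcript that median was 54.1 CPM for Gc, 68.4 CPM for Vdr and 32616 CPM for Gcg. The message for the carrier thus stood near that for the vitamin D receptor and far below that of glucagon. Liver is the main site of Gc production, and its markers were read beside Gc, but the source of the Gc reads was not tested. Of the liver markers, albumin (Alb) had a median of 1.38 CPM, alpha-2-HS-glycoprotein (Ahsg) 0.06 CPM, and fibrinogen alpha (Fga) no count in 284 libraries. The 7 liver genes together had a median of 5.50 CPM but reached 1657 CPM, carried by the apolipoprotein genes Apoa1 (up to 902 CPM) and Apob (up to 748 CPM), which intestine also makes, while Alb did not exceed 9.68 CPM. The labelled tissue held its markers, with median levels of 135833 CPM for Ins2 and 35486 CPM for Gcg. In bulk RNA of whole islets, fewer cells of a type and less RNA per cell cannot be told apart.

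On chow, Gc was highest in DBA/2J and lowest in BALB/cJ. The mean of the 4 day means was 160.5 CPM in DBA/2J, 114.8 CPM in 129S2/SvPas, 101.9 CPM in C57Bl/6J, 94.1 CPM in A/J, 79.7 CPM in AKR/J and 66.6 CPM in BALB/cJ. The range of day means overlapped between each strain and the next in this order (DBA/2J from 116.5 to 246 CPM, 129S2/SvPas from 95.7 to 152.3 CPM, C57Bl/6J from 95.4 to 110.4 CPM, A/J from 80.6 to 123.7 CPM, AKR/J from 76.0 to 82.7 CPM, BALB/cJ from 55.5 to 77.5 CPM). Within the GC bound the order was the same, with 147.9 CPM in DBA/2J and 64.1 CPM in BALB/cJ at its ends.

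The single mice show the same ends. At day 30 on RC, where 2 of 8 DBA/2J libraries and none of the other strains' lay beyond the bound, Gc ran from 138.1 to 177 CPM in DBA/2J (median 157.5, n = 8) and from 46.5 to 63.9 CPM in BALB/cJ (median 59.5, n = 8). The 4 strains between them had medians of 77.7 (AKR/J), 83.2 (A/J), 93.3 (C57Bl/6J) and 95.4 CPM (129S2/SvPas), each with n = 8. At that day no DBA/2J library overlapped any other strain's, but the share of all genes likewise apart between strains was not computed. The lowest AKR/J library, at 62.0 CPM, was below the highest of BALB/cJ.

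Against the mean of the other 5 strains on RC, in the fit over all 16498 genes tested, Gc differed by 0.75 (log2, SE 0.055) in DBA/2J and by -0.62 in BALB/cJ. The other differences were 0.27 (SE 0.054) in 129S2/SvPas, 0.03 in C57Bl/6J, -0.09 in A/J and -0.34 in AKR/J. These 6 comparisons share samples and use all libraries, and of the 27 DBA/2J libraries on RC 18 lie within the GC bound. Gcg did not follow the same order, being 0.57 higher in 129S2/SvPas (SE 0.069, edgeR adjusted p = 5.09e-14) and -0.64 in AKR/J (adjusted p = 2.20e-13), with 0.15 in DBA/2J (adjusted p = 0.0626). Vdr, the receptor, had its highest strain difference in DBA/2J, at 0.60 (SE 0.042, adjusted p = 2.78e-34). None of these Gcg and Vdr differences reaches the log2 change of 1 that the strain rule asked for. Values of these strain fits within the bound are not given here.

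**Figure D1:**
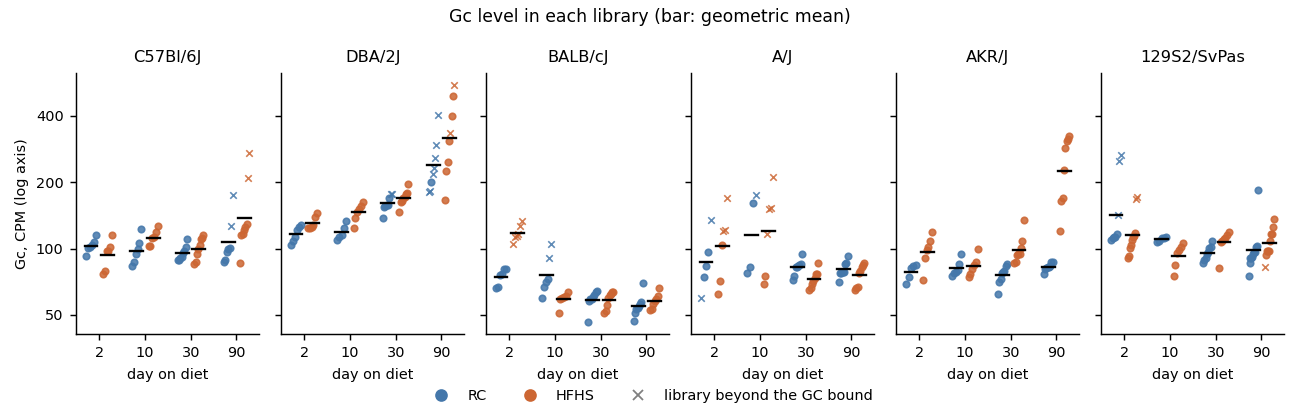
Gc level in CPM (log axis) in each library by day, with 1 panel per strain, RC in blue and HFHS in orange; bars are geometric means and crosses are libraries beyond the GC bound. The AKR/J libraries on HFHS at day 90 lie between 119.7 and 322 CPM, above all AKR/J libraries on RC, and the DBA/2J libraries of both diets are highest at day 90.

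AKR/J on HFHS for 90 days held the widest departure of Gc from chow. Its 8 libraries read 119.7 to 322 CPM with a median of 256, and the 8 libraries on RC read 76.3 to 87.1 CPM with a median of 82.7. The groups did not overlap, and 0.714% of genes with a mean of at least 1 CPM were likewise all higher. All 8 mice on HFHS were also above every AKR/J library on RC of any day, whose highest was 94.1 CPM, a comparison not made for other genes. The means were 239 ± 79.4 CPM (SD, n = 8) on HFHS and 82.7 ± 3.42 CPM (SD, n = 8) on RC. The fitted difference was 1.72 (log2, SE 0.139), or 3.30-fold, and 0.424% of the genes tested lay above it.

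The earlier days of AKR/J held smaller differences. At day 30 Gc ran from 85.7 to 135.02 CPM on HFHS (median 94.7, n = 8) and from 62.0 to 84.99 CPM on RC (median 77.7, n = 8), again with no overlap, a difference of 0.45 (SE 0.136). At day 2 the medians were 99.9 CPM on HFHS (71.9 to 118.4, n = 6) and 81.4 CPM on RC (69.0 to 84.3, n = 5), with overlap, and at day 10 they were 82.1 CPM (74.5 to 99.2, n = 6) and 79.2 CPM (75.4 to 94.1, n = 6). The day 10 difference was 0.02 and the day 2 difference 0.47 (SE 0.165), so the differences did not grow in order of day.

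The 8 AKR/J mice on HFHS at day 90 differed widely among themselves, while those on RC did not. In order of Gc, the mouse 5HF44 read 119.7 CPM, 5HF41 165 CPM, 5HF46 169.7 CPM, 5HF47 227 CPM, 5HF45 284 CPM, 5HF48 308 CPM, 5HF43 315 CPM and 5HF42 322 CPM. Aldh1a3, an aldehyde dehydrogenase that makes retinoic acid and marks beta cells that have lost maturity, read 44.3, 94.0, 53.2, 165, 192, 232, 215 and 215 CPM in the same mice. Serpina7, the thyroxine binding globulin and like Gc a hormone carrier of plasma, read 28.5, 52.1, 34.2, 40.5, 89.8, 106.4, 100.7 and 108.6 CPM. The 4 mice with the most Gc were the 4 with the most Aldh1a3 and the 4 with the most Serpina7. Serpina7 was chosen as the gene most like Gc within groups over libraries that include these mice, so its order here is a description. The mouse with the least Gc, 5HF44, had the most Gcg, at 18887 CPM, and the other 7 had 5010 to 11927 CPM.

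DBA/2J had the highest Gc of all at day 90, on both diets. On HFHS its 8 libraries read 165 to 551 CPM (median 322), and on RC 179.9 to 403 CPM (median 225), so the groups overlapped. The means were 339.9 ± 132.9 CPM (SD, n = 8) and 246 ± 74.1 CPM (SD, n = 8), and the difference was 0.74 (SE 0.136). Of the RC libraries, 7 of 8 lay beyond the GC bound, and the remaining one read 200.9 CPM. The 6 HFHS libraries within the bound read 165 to 491 CPM (median 278), of which 5 were above that single chow library. With a GC curve of each library as an offset the difference was 1.16. In this comparison 55.4% of all genes passed, and diet and the GC slope of the libraries cannot be told apart in it.

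Before day 90, the median Gc of DBA/2J was higher at day 30 than at day 2 on both diets, though on RC it was not higher at day 10. On RC its medians were 116.97 CPM at day 2 (103.8 to 128.1, n = 6), 114.8 CPM at day 10 (109.7 to 133.4, n = 5) and 157.5 CPM at day 30 (n = 8, of which 2 lie beyond the GC bound). On HFHS they were 126.7 CPM (123.8 to 144.5, n = 6), 149.4 CPM (124.4 to 162.3, n = 6) and 171 CPM (146.7 to 196, n = 8). All 8 HFHS libraries of day 30 were above all 6 of day 2, but the share of all genes likewise apart between days was not computed. The diet differences before day 90 were 0.15, 0.39 (SE 0.165) and 0.20, with overlapping groups on each day.

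The other 4 strains held no difference of that size at day 90. In C57Bl/6J Gc ran from 86.3 to 272 CPM on HFHS (median 123.5, n = 8) and from 86.5 to 175 CPM on RC (median 99.2, n = 7), a difference of 0.39 (SE 0.141). The 2 highest HFHS libraries, at 209.7 and 272 CPM, were among those that matched another strain, and within the GC bound the medians were 119.2 CPM (86.3 to 129.5, n = 6) and 96.5 CPM (86.5 to 100.4, n = 5), with a difference of 0.24. In BALB/cJ the medians were 58.0 CPM (52.8 to 66.0, n = 7) and 54.5 CPM (47.1 to 70.0, n = 8), and the difference was 0.08. In A/J they were 78.4 CPM (65.1 to 86.2, n = 8) and 78.3 CPM (70.4 to 92.5, n = 8), a difference of -0.11. In 129S2/SvPas they were 102.96 CPM (82.5 to 136.3, n = 10) and 94.2 CPM (74.7 to 185, n = 11), a difference of 0.10.

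Before day 90 the differences in these 4 strains were of both signs. At day 2 BALB/cJ read 104.9 to 133.6 CPM on HFHS (median 114.97, n = 6) and 66.6 to 81.1 CPM on RC (median 76.0, n = 6), with a difference of 0.43 (SE 0.157). All 6 of those HFHS libraries lie beyond the GC bound, and the GC offset turned the difference to -0.26. In 129S2/SvPas the day 2 difference was -0.38 (SE 0.128), and -0.063 within the bound, where 2 libraries on HFHS and 3 on RC are left out. At day 10 all 6 libraries of 129S2/SvPas on HFHS (75.1 to 106.3 CPM, median 97.1) were below all 5 on RC (106.9 to 112.99 CPM, median 111.9), by -0.31 (SE 0.164). In A/J at day 10 the medians were 134.2 CPM (68.8 to 211, n = 6) and 121.5 CPM (77.2 to 175, n = 4), and the difference of 0.12 became -0.52 within the bound, with 2 libraries left on HFHS and 3 on RC.

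The HFHS and RC libraries of Gc were fully apart in 4 of the 24 strain and day pairs. HFHS was higher in BALB/cJ at day 2 (35.5% of 13594 genes with a mean of at least 1 CPM were likewise all higher), in AKR/J at day 30 (0.25% of genes) and in AKR/J at day 90 (0.714%), and it was lower in 129S2/SvPas at day 10 (0.728%). Averaged over the 6 strains, the Gc difference was 0.11 at day 2, 0.01 at day 10, 0.13 at day 30 and 0.49 (SE 0.055) at day 90, and AKR/J and DBA/2J carried most of the last. From day 2 to day 90 the mean over strains moved by -0.03 on RC and by 0.34 on HFHS.

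**Figure D2:**
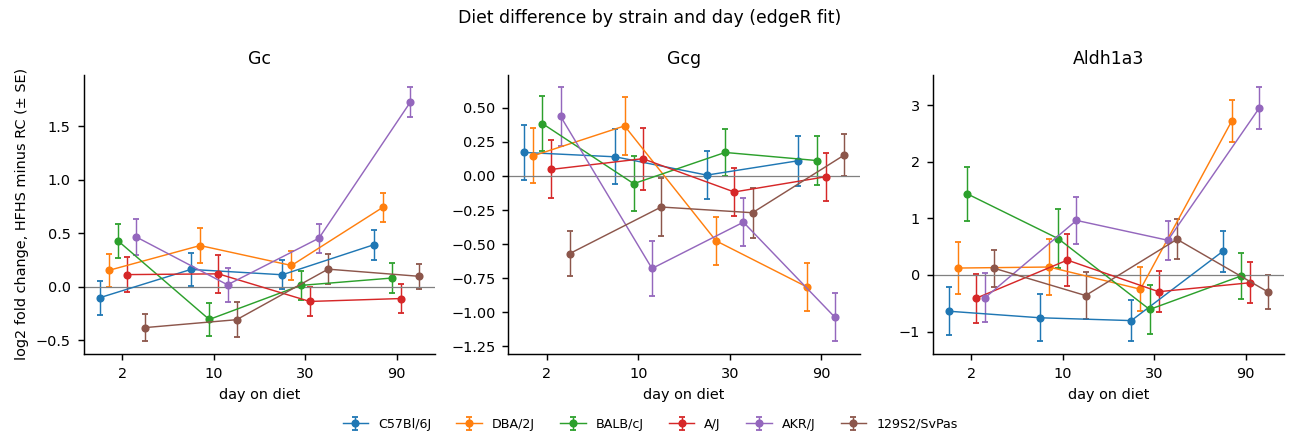
Log2 fold change of HFHS minus RC with its standard error for Gc, Gcg and Aldh1a3 at each day, with 1 line per strain, from the fit over 48 groups. At day 90 Gc stands at 1.72 in AKR/J and 0.74 in DBA/2J, where Gcg is at -1.04 and -0.82 and Aldh1a3 at 2.95 and 2.72.

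In AKR/J at day 90 Gc and the alpha cell hormone went in opposite directions. Gcg read 5010 to 18887 CPM on HFHS (median 6974, n = 8) and 16909 to 24011 CPM on RC (median 19604, n = 8), lower in 7 of 8 mice than every chow mouse. Gcg fell by 1.04 (log2, SE 0.177, edgeR adjusted p = 1.57e-06). The log2 ratio of Gc to Gcg counts, which does not depend on how a library is scaled, ran from -7.30 to -4.21 on HFHS (median -4.71) and from -8.17 to -7.62 on RC (median -7.90). All 8 HFHS mice were above all 8 on RC, and the difference of means was 2.78 (SE 0.377), or 6.86-fold.

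At day 10 in AKR/J the ratio differed where Gc alone did not. It was 0.026 (SE 0.120) at day 2, when Gc alone was at 0.47. It was higher on HFHS by 0.69 (SE 0.160) at day 10, when Gcg was lower in all 6 mice on HFHS (19769 to 26472 CPM) than in all 6 on RC (28311 to 43600 CPM; 2.55% of genes were likewise all lower, and edgeR gave Gcg -0.68 with an adjusted p of 0.146), and by 0.78 (SE 0.166) at day 30, with no overlap. In DBA/2J it was higher by 0.68 (SE 0.129) at day 30, again with no overlap, and by 1.53 (SE 0.295) at day 90. At day 30 in DBA/2J, 12.5% of single genes were likewise all higher in CPM and 14.9% all lower, and 2 of 8 RC libraries lie beyond the GC bound. The share of gene ratios likewise apart was not computed for any strain. Gcg in DBA/2J at day 90 read 15989 to 37835 CPM on HFHS (median 17377) and 32339 to 59005 CPM on RC (median 46373). In 129S2/SvPas the ratio was 0.42 (SE 0.135) at day 30, and in C57Bl/6J 0.35 (SE 0.301) at day 90. The mean over strains was 0.00 at day 2, 0.08 at day 10, 0.31 at day 30 and 0.74 (SE 0.107) at day 90.

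Strains differed in this ratio on chow as well. Over the 4 days its mean was -8.10 in DBA/2J, -8.34 in AKR/J, -8.36 in C57Bl/6J, -8.46 in A/J, -8.82 in 129S2/SvPas and -9.43 in BALB/cJ. No BALB/cJ mouse on RC exceeded -9.09, and the lowest DBA/2J mouse on RC was at -8.54. The share of other gene ratios that likewise part these strains was not computed.

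**Figure D3:**
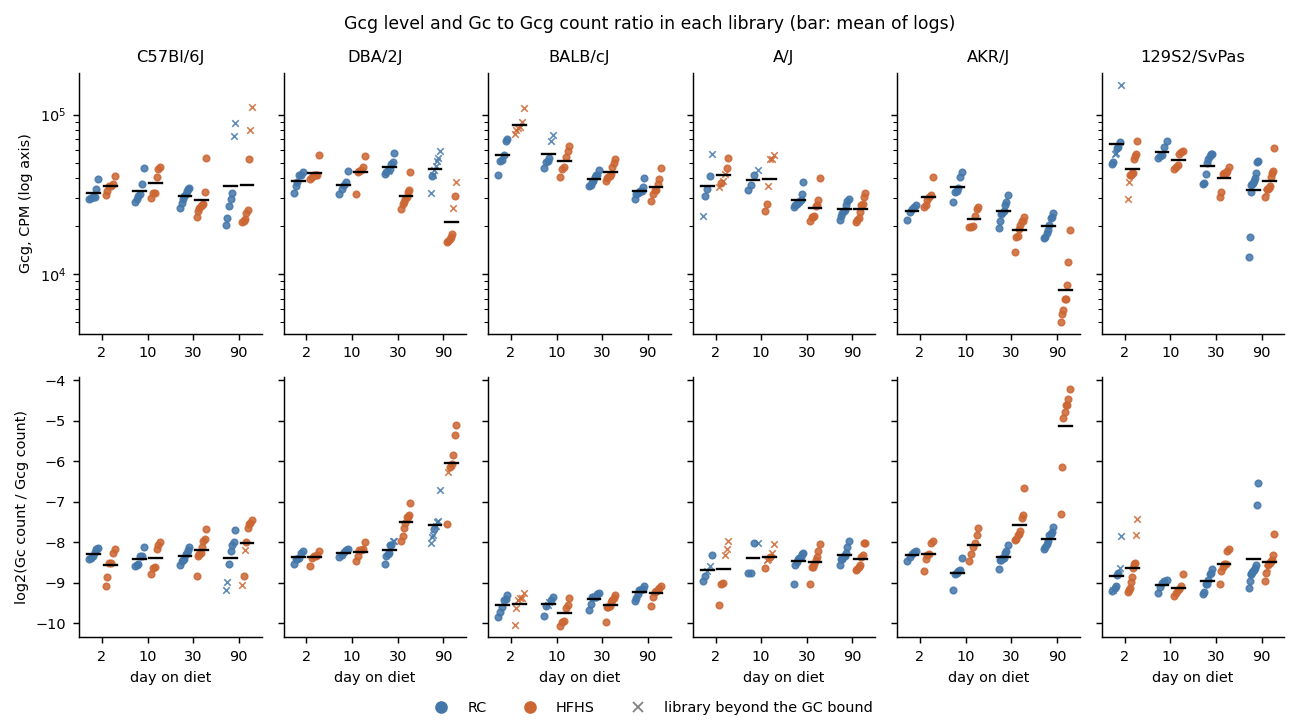
Upper row: Gcg level in CPM (log axis) in each library by day. Lower row: log2 of the ratio of Gc to Gcg counts; RC in blue, HFHS in orange, bars are means of logs and crosses are libraries beyond the GC bound. In AKR/J on HFHS at day 90 the Gcg libraries reach down to 5010 CPM and the ratios reach up to -4.21.

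Other alpha cell genes fell with Gcg in AKR/J at day 90, where Gc was higher. Of 10 alpha cell genes tested 5 were lower and none was higher, where 5.87% of all genes were lower and 6.58% were higher, and the median log2 difference was -0.83 against -0.01 over all genes. Among them were Gcg, the transcription factor gene Irx2 at -0.89 (SE 0.154, adjusted p = 2.48e-06), and Slc7a2, a transporter of basic amino acids, at -0.66 (SE 0.165, adjusted p = 0.00212). Ttr, the transthyretin gene and another carrier of thyroid hormone and retinol found in alpha cells, did not pass at 0.36 (adjusted p = 0.438). Irx1 did not pass at -0.93 (adjusted p = 0.0607). The summed alpha cell level was 6058 to 20240 CPM on HFHS (median 8518) and 18366 to 25746 CPM on RC (median 21162).

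Of 8 genes that are low in mature beta cells, 3 rose and 3 fell in the same comparison, where 6.58% of all genes were higher and 5.87% lower. Aldh1a3 rose by 2.95 (SE 0.368, adjusted p = 2.32e-11), from 15.2 to 31.6 CPM on RC (median 22.1) to 44.3 to 232 CPM on HFHS (median 179), with no overlap. The gut peptide hormone genes Cck and Gast also rose, Cck by 4.26 (SE 0.898, adjusted p = 0.000149) and Gast by 1.81, for which the SE was 0.433 and the adjusted p 0.00111. Both are scarce over all libraries, Cck with a median of 0.11 CPM and no count in 57, Gast with a median of 0.31 CPM and at most 2.57 CPM. Neurog3, the endocrine progenitor factor, fell by 0.93 (adjusted p = 0.000229), Sox9, a duct and progenitor factor, by 0.92 (adjusted p = 0.036), and Slc16a1, a lactate and pyruvate carrier, by 0.87 (adjusted p = 0.0475). Aldh1a3, Cck and Gast were thus higher where Gc was higher, and the median of the list was -0.28.

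Summed levels of other cell types also differed in this comparison. Summed levels on HFHS and RC had medians of 320266 and 265270 CPM for beta cell genes, 3900 and 7966 CPM for delta and PP cell genes, and 2179 (475 to 6134) and 5847 (3539 to 23776) CPM for acinar genes. With the acinar mean as a covariate the Gc difference was 1.69, and the part of the other cell types in it was not tested. The liver list summed to 6.07 to 10.2 CPM on HFHS, below the Gc level itself in all 8 mice. On RC it summed to 4.91 to 119.4 CPM (median 6.03), so its highest library exceeded every Gc level of that group (76.3 to 87.1 CPM). Of 6 liver genes tested 1 was higher and 1 lower. Of all genes 6.58% were higher and 5.87% lower. Beside these shares, counts higher and lower were 1 and 2 of 11 beta cell genes and 0 and 3 of 5 delta and PP cell genes. They were 1 and 1 of 11 acinar genes, 0 and 1 of 5 duct genes and 1 and 0 of 5 macrophage genes. None of the 5 stellate, 4 endothelial and 3 fat cell genes tested passed. Counts of 1 in lists this short are near those shares.

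In DBA/2J at day 90 Gcg fell by 0.82 (SE 0.177, adjusted p = 4.3e-05) and Aldh1a3 rose by 2.72 (SE 0.37, adjusted p = 2.72e-10), beside the Gc difference of 0.74. Aldh1a3 read 6.72 to 92.2 CPM on HFHS (median 14.4) and 1.78 to 10.1 CPM on RC (median 4.91). Cck rose by 2.98 (adjusted p = 0.00288) and Gast by 1.84 (adjusted p = 0.00012). Of the 10 alpha cell genes 3 were lower (Gcg, Slc7a2 and Etv1) and 2 higher (Irx1 at 2.32 and Ttr at 0.98), against 29.3% and 26.1% of all genes. With the GC offset Gcg did not pass at -0.35 and Etv1 turned to 0.053. Over the 6 strains, 2 of 10 alpha cell genes were lower at day 90, Gcg at -0.25 (adjusted p = 0.00941) and Slc7a2 at -0.25 (adjusted p = 0.00552), where 6.79% of genes were lower. In that mean Aldh1a3 rose by 0.94 (adjusted p = 2.19e-07), where 9.78% of genes were higher. Over the 5 strains that keep at least 2 libraries per diet within the bound, Gcg was at -0.16 and Aldh1a3 at 0.38, and neither passed, while the Gc difference was 0.40.

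**Figure D4:**
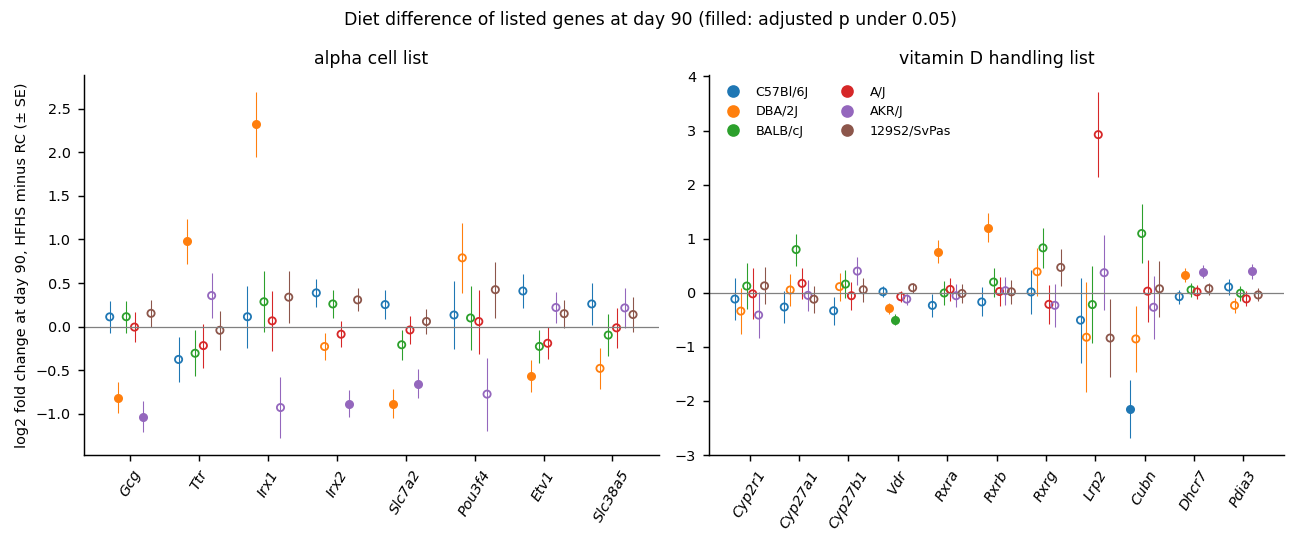
Log2 fold change of HFHS minus RC at day 90 with its standard error for 8 alpha cell genes and the vitamin D handling genes, 1 colour per strain; filled circles passed at an adjusted p under 0.05. In AKR/J Gcg, Irx2 and Slc7a2 are filled below 0, and of the vitamin D handling genes Dhcr7 and Pdia3 are filled above 0.

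Of the other genes of vitamin D handling, 2 of 11 tested were higher in AKR/J at day 90 and none lower, where 6.58% of all genes were higher and 5.87% lower, and their median was -0.05. Dhcr7, which turns the vitamin D precursor into cholesterol, rose by 0.39 (SE 0.125, adjusted p = 0.0215), and Pdia3, a disulfide isomerase also described as a membrane binder of active vitamin D, by 0.40 (SE 0.138, adjusted p = 0.0376). Dhcr7 did not pass in the authors' table (0.36), and Pdia3 did not with the acinar covariate (0.32). Vdr was at -0.12 (adjusted p = 0.555) and did not pass there. In DBA/2J 3 were higher and 1 lower, near the shares of all genes (26.1% and 29.3%). Rxra at 0.76 and Rxrb at 1.20 were at -0.0076 and -0.48 with the GC offset, Dhcr7 at 0.33 was at 0.20 and did not pass with it, and Vdr fell by 0.28 (adjusted p = 0.0128). Over the 6 strains 1 was lower, Vdr at -0.14 (SE 0.041, adjusted p = 0.00974), and in BALB/cJ alone Vdr fell by 0.49 (adjusted p = 0.00197), where 0.927% of genes were lower. In C57Bl/6J, where 0.176% of genes were lower, Cubn was at -2.15 and passed, but it was at -0.41 and did not pass within the GC bound, and at -0.66 without passing in limma voom. Beside the 29 genes called lower there by edgeR, voom and the authors' table called 0.

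The enzymes and uptake receptors were scarce in islets. Median levels were 2.01 CPM for the 25-hydroxylase Cyp27a1, 1.19 CPM for the activating enzyme Cyp27b1, 0.20 CPM for the 25-hydroxylase Cyp2r1 and 0.07 CPM for Lrp2. Cyp24a1, the inactivating enzyme that active vitamin D induces, had no count in 181 libraries. The receptor Vdr (136.2 to 560 CPM) and its partners Rxra (median 51.2 CPM) and Rxrb (median 43.1 CPM) were read in every library.

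Of the known vitamin D receptor targets, 4 of 6 were tested. In AKR/J at day 90 none was higher and 2 were lower, where 6.58% and 5.87% of all genes were. Calb1, a calcium binding protein, fell by 0.54 (SE 0.165, adjusted p = 0.0164). S100g, another one, was listed at 0 in all 8 HFHS libraries, and on RC it ran from 0 to 15.1 CPM with a median of 0.06 CPM, and it did not pass in voom or in the authors' table. The calcium sensing receptor Casr was at 0.04 (adjusted p = 0.95). The relatives of Gc in the albumin family, Alb, Afp and Afm, did not pass there (0 of 3). The factors known to drive Gc in liver did not pass either (0 of 7 in each direction), with Hnf4a at 0.08 (adjusted p = 0.788). In DBA/2J 4 of the 7 were higher, where 26.1% of all genes were, among them Foxa2, a forkhead factor, at 0.49 (adjusted p = 3.55e-05), which was -0.24 with the GC offset.

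Mice of the same strain, diet and day were then compared with each other, after the group mean was removed from each gene. Such differences between mice of 1 group are no differences by strain, diet or day. They still come from the libraries by whose levels Gc was chosen, and the measures come from lists chosen with earlier results known. The p-values that follow describe these libraries and are not independent of those choices. The within-group SD of Gc was 0.27 on the log2 scale. Gc was set against 15 measures by Pearson's r and Spearman's rho, with 100000 permutations within groups (two-sided, smallest possible p 1e-05) and Benjamini-Hochberg adjustment over the 15. Of these 9 passed over all libraries and 8 within the GC bound, 5 of them in both with the same sign and 1 in both with opposite signs.

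Aldh1a3 was related to Gc in both sets. Over all libraries r was 0.38 (permutation p = 1e-05, adjusted p = 3.75e-05) and rho 0.27 (adjusted p = 0.0002), and r was 0.32 without the 2 libraries farthest from the median. Within the bound (298 libraries in 46 groups) r was 0.47 and rho 0.28, and without AKR/J and DBA/2J on HFHS at day 90 as well it was 0.31 (adjusted p = 0.0008). In single strains within the bound r was 0.69 in AKR/J (n = 55, permutation adjusted p = 0.00015), 0.61 in DBA/2J (n = 43, adjusted p = 0.0479), 0.49 in 129S2/SvPas (adjusted p = 0.0799), 0.40 in C57Bl/6J (adjusted p = 0.0508) and 0.36 in A/J (adjusted p = 0.144). Within AKR/J on HFHS at day 90 alone r was 0.96 (n = 8) and on RC at that day -0.37 (n = 8), and the strain without its mice on HFHS at day 90 gave 0.51 (n = 47, permutation adjusted p = 0.0221). BALB/cJ went the other way, with r of -0.49 (n = 47, permutation adjusted p = 0.00645), in mice whose Aldh1a3 was near 1 CPM.

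Gcg was only weakly related to Gc from mouse to mouse. Over all libraries r was 0.23 (permutation p = 0.00501, adjusted p = 0.0107) and rho 0.25, and 0.20 without the 2 farthest libraries. Within the bound r was 0.021 (adjusted p = 0.847) and rho 0.19 (adjusted p = 0.00535). Within AKR/J r was -0.35 (n = 55, permutation adjusted p = 0.226). Ttr had r of -0.16 over all libraries (permutation adjusted p = 0.116) and 0.47 within the bound (adjusted p = 5e-05), and Ins2 had -0.40 (adjusted p = 3.75e-05) and 0.29 (adjusted p = 5e-05), so the sign of both turned on the libraries beyond the bound. Vdr had r of 0.11 (permutation adjusted p = 0.157) and Alb 0.06 (adjusted p = 0.306).

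Among 10246 genes with a mean of at least 5 CPM, the 10 whose within-group pattern was most like that of Gc were Serpina7 (r = 0.78), Nucb2, the nesfatin precursor (0.74), Pam, which amidates peptide hormones (0.72), Sec11c and Spcs1, subunits of the signal peptidase (0.72 each), Cmas, Erlec1, Tspan13, Cdc123 and Ociad1 (0.70 to 0.71). These are descriptions over all libraries, which share depth and base composition, with no test. Within the bound Serpina7 was at 0.70 and Nucb2 at 0.72. The 5 least like it were Vwa5b1 (-0.65), Ccdc88c, Abl1, Axin2 and Itpr3. In AKR/J at day 90 the 10 most alike genes were all above 0, with Serpina7 at 1.74, Nucb2 at 1.37, Sec11c at 0.98 and Cmas at 0.86, and a median of 0.68. In DBA/2J 5 of the 10 were above 0, with a median of 0.00.

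**Figure D5:**
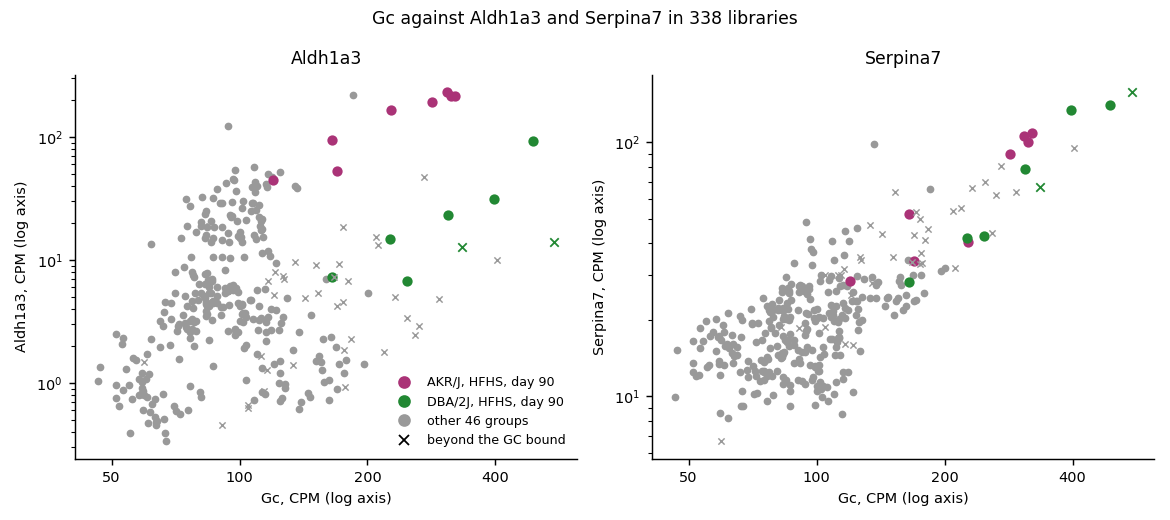
Gc level against Aldh1a3 (left) and Serpina7 (right) in each library, both axes in CPM on log scales; AKR/J and DBA/2J on HFHS at day 90 are coloured, the other 46 groups are grey, and crosses are libraries beyond the GC bound. At similar Gc the AKR/J mice (44.3 to 232 CPM of Aldh1a3) lie above the DBA/2J mice (6.72 to 92.2 CPM), whereas for Serpina7 both strains lie along 1 band.

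Over the 48 group means another set of genes was most like Gc. It was led by Ift57, a protein of ciliary transport (r = 0.85), Lipo1, a lipase (0.84), Gde1, a glycerophosphodiester phosphodiesterase (0.83), Copz2, a coat protein of Golgi vesicles (0.81), and Dct, an enzyme of melanin synthesis (0.80), followed by Stk39, Ddx19b, Golt1b, Hsd17b12 and Pi4k2b. Gcg ranked 6958 of the 10246 genes by this measure, with r of -0.17, and Aldh1a3 had 0.34. Without the 2 group means of AKR/J and DBA/2J on HFHS at day 90 they were 0.20 and 0.14, so the sign for Gcg rests on those groups. The group means carry the strain order, so genes that differ by strain can rank high here.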

How the data were processed

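Islet RNA was sequenced in mouse libraries prepared with the TruSeq RNA v2 kit, which keeps no strand, so reads of overlapping or antisense transcripts are not separated. The submitters' processing notes name HTSeq 0.5.3p3, edgeR, TopHat 1.3.3 and SAMtools 0.1.16 and the build mm9. The deposited raw table holds read counts of 21382 genes by symbol. As an alternative served the authors' deposited log2 table of 14826 genes, whose values are log2 of 1 plus the count times a factor per library.

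With TMM scaling, counts entered edgeR 4.0.16 (R 4.3.3, robust quasi-likelihood, filterByExpr, 16498 genes) and 1 mean for each of 48 groups was fitted. SE is the log2 fold change over the square root of F. Adjusted p-values are Benjamini-Hochberg over all genes tested, called under 0.05. The strain rule also asked for a log2 change of at least 1, and no strain call is used here. CPM levels carry no TMM factor. Nothing says whether mice of a group were housed or prepared together, so p-values measure the spread between these libraries. Transcript lengths and GC content came from GENCODE M21. On simulated counts for AKR/J at day 90, 181 of 200 genes changed by 1 log2 unit were recovered, with 9 false calls among the unchanged genes of the 16498. The simulated spread followed the fitted trend, with none of its own for each gene, and the scarcest genes were left out of the changed ones. These rates therefore do not cover scarce genes or genes of unusual spread.

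Gc and the gene lists (vitamin D handling, vitamin D receptor targets, albumin family, regulators of Gc, and markers of islet, liver, acinar, duct, stellate, endothelial, macrophage and fat cells) were chosen with earlier results of these data known. Genes named are list members and the 10 most and 5 least like Gc within groups, and 10 over group means. Some genes of these lists are counted but their values are not reported here. Cubn in C57Bl/6J was chosen after its value was seen. Alternatives were DESeq2 1.42.0 and its size factors, no filter, limma 3.58.1 with the authors' table or voom with a replicate block (the mouse number), fits without single libraries, a GC offset and an acinar covariate. Settings added after seeing the data were voom without the block, single strains within the GC bound, correlations without AKR/J and DBA/2J on HFHS at day 90 or in AKR/J without that group, and list counts by strain.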

Additional observations from a re-analysis of the deposited data

Results flagged for a closer look

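In 5 of 47 groups with 4 to 10 mice, 1 library stood far from the rest in Gc, and chance gives about 1 in 20 groups. On HFHS at day 30 the AKR/J mouse 5HF26 read 135.02 CPM, above the other 7 mice (85.7 to 108.4 CPM), and held 39.8 CPM of Aldh1a3 and 13718 CPM of Gcg. In 129S2/SvPas on HFHS at day 30 mouse 6HF30 read 81.4 CPM, below the other 6 (106.9 to 119.3 CPM). The other 3 were BALB/cJ mice: 3HF16 on HFHS at day 10 read 51.1 CPM (others 58.8 to 63.4), 3RC29 on RC at day 30 read 46.5 CPM (others 58.0 to 63.9), and 3RC41 on RC at day 90 read 70.0 CPM (others 47.1 to 57.1). All 5 libraries lay within the GC bound and matched their labelled strain.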

How the results depend on the processing

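The AKR/J difference of Gc at day 90 ranged from 1.60 (authors' table) to 1.72 over all alternatives. No alternative left out an AKR/J library of that day. The range therefore covers scaling, offset, covariate and model, and not the spread between those mice. The AKR/J ratio of Gc to Gcg, 2.78 at that day, was bound to stay for the same reason. A factor per library, as in the authors' table, leaves a ratio of counts nearly as it was. Leaving out each mouse of the groups of 4 or 5 moved no Gc difference or ratio by more than the within-group SD, and the widest range was -0.03 to 0.29 for Gc in A/J at day 10. Whether mouse numbers shared by the diets pair the mice was not settled. Deviations of same-numbered mice had a median correlation of 0.02, 43 pairs were over 0.1, the others were not, and the lowest was at -0.94. In 129S2/SvPas at day 2 the values were 0.35, -0.60, 0.61, 0.49, 0.70 and 0.60. A median over strains cannot show that no group was paired. C57Bl/6J and DBA/2J share no numbers between diets within a day, so the median does not cover them. With the mouse number as a replicate block the AKR/J difference was 1.63, as without the block under voom, and with the block the calls lost among the genes named were Cubn in C57Bl/6J and S100g in AKR/J, both lost without the block too. The Gc differences that moved were those of groups with libraries beyond the GC bound. With GC curves as an offset they were -0.26 in BALB/cJ at day 2, -0.23 and -0.24 in A/J at days 2 and 10, and 1.16 in DBA/2J at day 90. Within the bound they were -0.24 and -0.52 in A/J at days 2 and 10 and -0.063 in 129S2/SvPas at day 2, and the A/J ratio at day 2 was -0.49. Without the libraries matching another strain, 129S2/SvPas at day 2 was at -0.065, and the authors' table gave 0.072 in BALB/cJ at day 2. BALB/cJ at day 2 and DBA/2J at day 90 have too few libraries within the bound for a value there.

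The correlation of Gc with Gcg did not pass within the bound (0.021), without the libraries matching another strain (0.11), in the authors' table (0.085) or within the bound without AKR/J and DBA/2J on HFHS at day 90 (0.18). In single strains it was 0.12 in DBA/2J, 0.39 in A/J, 0.13 in 129S2/SvPas and -0.35 in AKR/J (-0.10 without its mice on HFHS at day 90), and within the bound 0.10 in A/J, 0.30 in C57Bl/6J, 0.045 in 129S2/SvPas and 0.023 in DBA/2J. That with Aldh1a3 did not pass in DBA/2J alone (0.52) and was -0.26 in BALB/cJ and -0.074 in 129S2/SvPas, and within the bound it was 0.40 in C57Bl/6J, -0.49 in BALB/cJ, 0.36 in A/J and 0.49 in 129S2/SvPas. That with Ttr turned to 0.47 within the bound, 0.46 with GC curves removed, 0.65 in AKR/J (0.38 without those mice), and within the bound to 0.72 in DBA/2J, 0.54 in C57Bl/6J, 0.52 in BALB/cJ and 0.38 without the 2 HFHS groups. That with Ins2 turned to 0.29, 0.34 and 0.34 in the same settings (0.36 in AKR/J without those mice), and within the bound to 0.55 in 129S2/SvPas, 0.37 in DBA/2J, 0.32 in C57Bl/6J, 0.37 in BALB/cJ and 0.31 without the 2 groups. The causes were not tested.

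List counts moved by up to 3 genes. Over the strains at day 90, 1 alpha cell gene was higher without the libraries matching another strain, with the acinar covariate and with DESeq2, and 1 was lower within the bound. In the same mean 1 vitamin D handling gene was higher within the bound, without 129S2/SvPas mice numbered 75 or higher, with the acinar covariate and with DESeq2, and 2 without the libraries matching another strain, and 1 gene low in mature beta cells was higher within the bound. In AKR/J 1 alpha cell gene was higher within the bound, 1 vitamin D handling gene was higher with the acinar covariate and in the authors' table, and 1 gene low in mature beta cells was lower with the acinar covariate. In DBA/2J the GC offset gave 1 alpha cell gene higher and 5 lower, 0 vitamin D handling genes higher and 2 lower, and 2 genes low in mature beta cells lower, and the authors' table gave 0 vitamin D handling genes lower. With the GC offset in DBA/2J at day 90 Etv1 was at 0.053, Rxra at -0.0076, Rxrb at -0.48 and Foxa2 at -0.24. All genes called at day 90 went from 1085 higher and 969 lower in AKR/J to 2802 and 2232 within the bound, from 4311 and 4833 in DBA/2J to 3565 and 1813 with the GC offset, and from 1613 and 1120 over the strains to 816 and 867 within the bound. List counts without single mice were not run.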

Other observations

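In 129S2/SvPas on chow at day 90, the mouse 6RC87 read 185 CPM of Gc, above the other 10 mice of its group, with 219 CPM of Aldh1a3, 17113 CPM of Gcg and 65.8 CPM of Serpina7. In the same group the mouse 6RC89, whose label holds an editing mark, read 123.8 CPM of Aldh1a3 and 12748 CPM of Gcg, while its Gc was 94.2 CPM. The group's medians were 94.2 CPM for Gc, 29.7 CPM for Aldh1a3 and 37406 CPM for Gcg, so low Gcg and high Aldh1a3 occurred on chow in 2 mice of which 1 had high Gc.

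Aldh1a3 differed between strains on chow far more than Gc did. It was 2.98 higher in 129S2/SvPas than in the other strains (log2, SE 0.125, edgeR adjusted p = 2.76e-68), 1.22 higher in AKR/J, and at -1.58 in DBA/2J and -2.91 in BALB/cJ. Gc stood at 0.27, -0.34, 0.75 and -0.62 in the same 4 strains, so over strains the genes did not share an order.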
